A study of Mus musculus with 25 samples.

Results

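Plexins are the cell-surface receptors of semaphorins, and the mouse genome encodes 9 of them: 4 of class A (Plxna1, Plxna2, Plxna3 and Plxna4), 3 of class B (Plxnb1, Plxnb2 and Plxnb3), Plxnc1 and Plxnd1. These 9 genes, of 37074 distinct gene names on the array, were followed here in perigonadal white adipose tissue, or pgWAT, which in male mice lies next to the epididymis. A probe belonged to the family if the array files name one of the 9 genes for it. This gave 16 probes, of which 14 were in the authors' table of 40561 normalised probes. Plxna2 was chosen because it was higher in both knockouts of the series, so its levels in those comparisons are given as a description with no test.

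All mice were C57BL6/J males that had been fasted for 24 hours and refed for 18 hours with food and water containing 20% glucose, a protocol that activates the glucose-responsive transcription factor ChREBP, which the gene Mlxipl encodes. ChREBPβ WT (7 arrays) and ChREBPβ KO mice (6 arrays) came from stock in which the exon specific to the ChREBPβ isoform was deleted by CRISPR/Cas9 in the whole animal. The study derived more than 1 such line per strain, and the sample titles do not say which gave these arrays. They are called the ChREBPβ line here. The 7 arrays of total ChREBP WT mice and the 5 of total ChREBP KO mice came from a separate line, whose knockouts carried an Mlxipl null allele and so made neither ChREBPα nor ChREBPβ in any tissue. Each array held the RNA of 1 sample, and the ages of the mice are not given in the sources used here.

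When a semaphorin binds, a plexin changes its shape and its intracellular domain, which inactivates small GTPases of the Rap and R-Ras kind, alters the cytoskeleton and adhesion of the cell. Secreted class 3 semaphorins act mostly through a plexin held together with a neuropilin, whereas many membrane-bound semaphorins bind a plexin directly. The family is known for guiding axons and blood vessels and for regulating immune cells, and fat tissue contains vessels, nerves and macrophages beside its adipocytes.

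The probes that carry the results are shown by the last 30 bases of each 60-base probe, positions 31 to 60 from the probe's 5′ end, with the mm9 position of the bases printed. The Plxna2 probes are shown because they gave unequal values and one of them lies far from the others, the Plxnd1 probes because both measured the same change, and the Plxnb2 probe because it was called between the wild types. Capitals mark the polyadenylation hexamer AATAAA, which stands near the end of many transcripts.
Plxna2, probe A_51_P229602, chr1:196642988-196643017, plus strand: ttttgcaagccaaggacacaatttgtactg
Plxna2, probe A_52_P431981, chr1:196640319-196640348, plus strand: tatgatgattcacaaccagccatgccaagg
Plxna2, probe A_55_P2715021, chr1:196486177-196486206, plus strand: gtccagtaaattcttttgatgttgccttgg
Plxnd1, probe A_55_P2151822, chr6:115904829-115904858, minus strand: tttatAATAAAagcctgccgggaaaaccta
Plxnd1, probe A_52_P472319, chr6:115905315-115905344, minus strand: tgtctgtgtccctcatccagagggggcctt
Plxnb2, probe A_55_P1967266, chr15:88985981-88986010, minus strand: gtaaatccaatacagttgtctttttcactc

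The Plxnd1 probes started 486 bases apart. Of the 16 plexin probes, 3 held AATAAA or ATTAAA on the strand printed, against 13.4% of all 56605 probes. The low Plxna2 probe started 157 kb before the brightest one on chromosome 1. None of the 56589 probes of other genes shared a run of 20 bases with a plexin probe. Gene annotation of mm9 was not used here, so whether a probe lies in an exon or an untranslated region is not stated.

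Median raw intensity ran from 84 to 127 over the arrays and local background from 15 to 22. All 14 plexin probes of the table were well above background on all 25 arrays. The precision of each mean is limited by the number of arrays. For the brightest probe of Mlxipl, the targeted gene, the log2 level was 14.07 to 14.29 in total ChREBP KO mice and 15.74 to 16.24 in total ChREBP WT mice. It was 14.02 to 14.64 in ChREBPβ KO mice and 14.72 to 15.46 in ChREBPβ WT mice, so the groups overlapped in neither line. Of the other Mlxipl probes, A_55_P2728555 was at 10.73 to 10.89 in total ChREBP KO and 11.22 to 11.78 in total ChREBP WT mice and overlapped in the ChREBPβ line, at 10.29 to 10.76 and 10.54 to 11.38, and A_55_P2045158 overlapped in both lines, with group medians of 11.85 to 11.94. Adipocyte markers were high on every array, with a mean log2 level of 15.72 to 16.13 over 12 genes. Liver genes were also high and uneven, with a mean over 8 genes of 12.74 to 15.98 in the wild types and 11.31 to 15.45 in the knockouts of the ChREBPβ line, and of 8.59 to 13.56 and 8.33 to 9.28 in those of the total ChREBP line. Total ChREBP WT replicate 2 stood apart with the highest level of the epididymis gene Adam7, at 15.71, and ChREBPβ WT replicates 1, 3 and 7 were the highest arrays in kidney genes. The results below were also computed without these 4 arrays. In whole tissue, fewer cells of a type and less RNA per cell cannot be told apart.

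**Figure D1:**
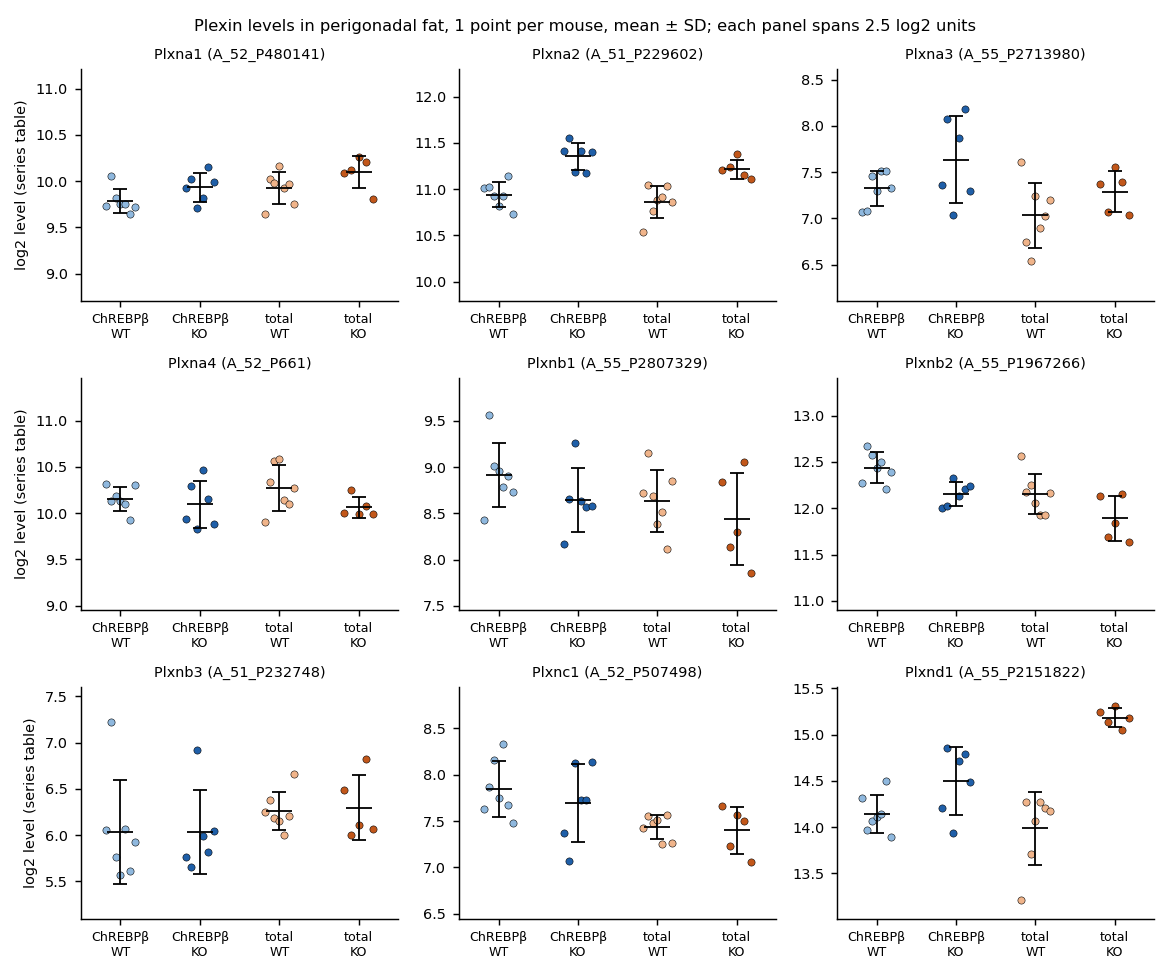
Log2 level in the authors' table of the brightest probe of each plexin (vertical axis) in the 4 groups (horizontal axis), with 1 point per mouse and the mean ± SD in black; every panel spans the same 2.5 log2 units. The 5 total ChREBP KO mice lie above all other mice for Plxnd1, at 15.04 to 15.31, whereas most other panels show overlapping groups.

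Plxnd1, a receptor of Sema3e known for its part in the patterning of blood vessels, rose in total ChREBP KO mice. For its brightest probe the log2 level was 15.04, 15.14, 15.18, 15.24 and 15.31 in the 5 total ChREBP KO mice, and the lowest, median and highest of the 7 total ChREBP WT mice were 13.21, 14.18 and 14.27. Every knockout array lay above every wild-type array of the line, a pattern seen in 3.92% of all probes. The group means were 15.18 ± 0.10 (SD, n = 5) and 13.99 ± 0.39 (SD, n = 7). The difference was 1.22 (SE 0.15), which is 2.33-fold, with an adjusted p of 8.26e-06 in limma. The second probe gave 12.06 ± 0.13 (SD, n = 5) and 10.92 ± 0.37 (SD, n = 7) and a difference of 1.13 (SE 0.14), 2.19-fold, with an adjusted p of 8.73e-06 in limma. These were the only calls among the 12 probes of the 8 plexins other than Plxna2 in this comparison, in which 8.79% of all probes were called. Within the 4 wash batches the difference of the brightest probe was 1.20, 1.04, 0.94 and 1.55.

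In the ChREBPβ line the Plxnd1 groups overlapped. The brightest probe had a lowest, median and highest log2 level of 13.94, 14.60 and 14.86 in ChREBPβ KO mice and 13.89, 14.10 and 14.50 in ChREBPβ WT mice. The difference was 0.39 (95% interval 0.09 to 0.69), with an adjusted p of 0.417 in limma. The knockout effect in the total ChREBP line exceeded that in the ChREBPβ line by 0.83 (SE 0.21) for this probe, with an adjusted p of 0.027 in limma. For the second probe it exceeded it by 0.83 (SE 0.19), with an adjusted p of 0.0155. The knockouts came from separate lines, so the isoforms lost and the line cannot be told apart here. In this comparison of effects 3.21% of all probes were called, and these 2 probes were the only plexin probes called. The call of the brightest probe ended without ChREBPβ KO replicate 2 (adjusted p 0.0531), total ChREBP KO replicate 2 (0.0586) or total ChREBP KO replicate 1 (0.0712), and without the 4 arrays named above (0.59, adjusted p 0.077), all in limma, whereas the second probe was called in each of these fits. The levels of the wild types of the 2 lines differed by -0.15 (95% interval -0.44 to 0.13) for the brightest probe, with an adjusted p of 0.456 in limma.

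Other cell markers were set beside the Plxnd1 result. Of 12 endothelial markers, 0 were called between total ChREBP KO and WT mice, and 0 had an unadjusted p under 0.05 in limma, which 20.3% of all probes had. Their median difference was 0.02, which is also the median of all probes, and their mean log2 level was 12.47 to 12.88 in knockouts and 12.33 to 12.71 in wild types. Of 12 adipocyte markers 3 were called higher in total ChREBP KO mice, namely Lpl (0.58), Plin1 (0.43) and Cidec (0.39). In either direction 8.79% of all probes were called. An unadjusted p under 0.05 in limma was reached by 5 of the 12, and the list median was 0.15. Averaged over the 12 genes, levels did not overlap, at 16.08 to 16.13 in knockouts against 15.72 to 16.02 in wild types. Among single probes, 3.92% lay above every wild-type array in these knockouts. The part of adipocyte RNA in the Plxnd1 difference was not tested. Of 8 liver markers 1 was called lower and 1 higher, with 7 at an unadjusted p under 0.05 and a median of -1.96, and with their mean level as a covariate the Plxnd1 difference was 1.05, with an adjusted p of 0.000137 in limma. Total ChREBP WT replicate 2 had the lowest Plxnd1 level, and without it the difference of the brightest probe was 1.1, with an adjusted p of 1.42e-06 in limma.

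**Figure D2:**
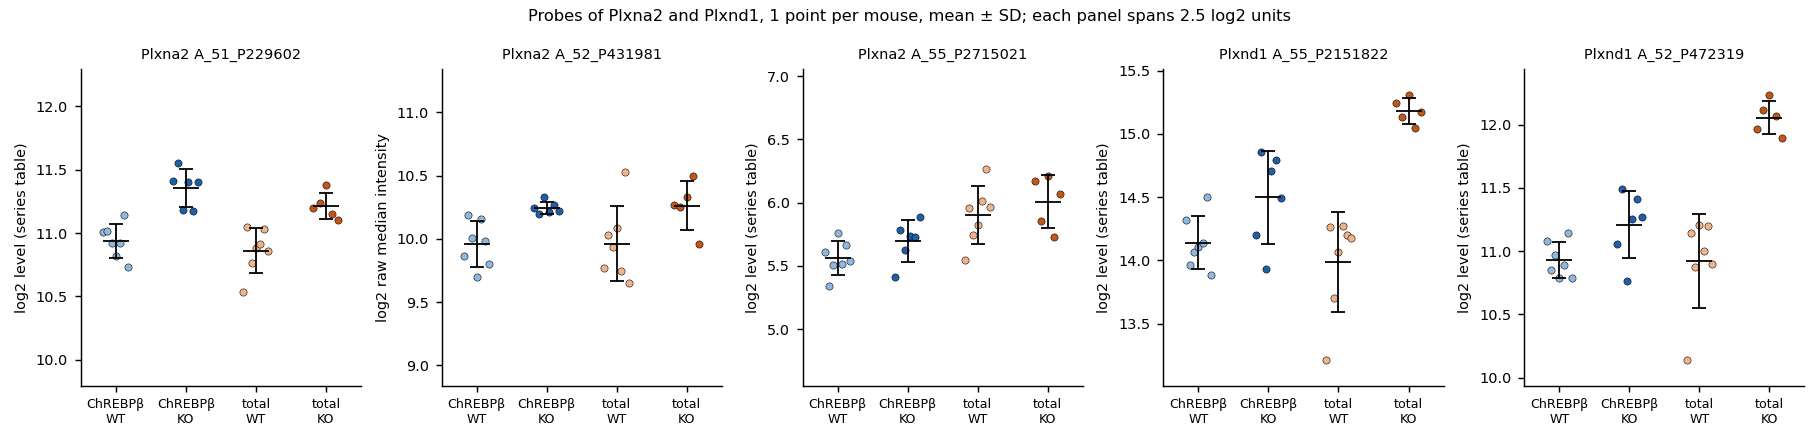
Levels of the Plxna2 probes and of the Plxnd1 probes (vertical axis, log2) in the 4 groups, with 1 point per mouse and the mean ± SD; the second panel shows raw median intensity because that probe is not in the authors' table. Both Plxnd1 probes place the 5 total ChREBP KO mice apart, and the brightest Plxna2 probe is higher in both knockouts than in their wild types.

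Plxna2, a receptor of semaphorins of classes 3 and 6, was higher in both knockouts by its brightest probe. The log2 level had a lowest, median and highest value of 10.73, 10.92 and 11.14 in ChREBPβ WT mice and of 11.18, 11.40 and 11.55 in ChREBPβ KO mice. It was 10.54, 10.88 and 11.05 in total ChREBP WT mice, and the 5 total ChREBP KO mice had 11.11, 11.15, 11.20, 11.24 and 11.38. The knockouts of each line lay above all their wild types. The means were highest in the knockouts, at 11.36 ± 0.15 (SD, n = 6) for ChREBPβ and 11.22 ± 0.10 (SD, n = 5) for total ChREBP, followed by the wild types of the ChREBPβ line, at 10.94 ± 0.14 (SD, n = 7), and of the total ChREBP line, at 10.86 ± 0.17 (SD, n = 7). The ranges of the 2 knockouts overlapped, as did those of the 2 wild types.

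The difference between knockout and wild type was 0.43 (SE 0.07), 1.35-fold, in the ChREBPβ line and 0.35 (SE 0.07), 1.27-fold, in the total ChREBP line. As the background of that pattern, 0.0616% of all probes lay above every wild-type array in ChREBPβ KO mice and 3.92% in total ChREBP KO mice, and nothing is read from it because Plxna2 was chosen on these values. Within the wash batches the difference was 0.43, 0.53, 0.33 and 0.46 in the ChREBPβ line and 0.37, 0.33, 0.13 and 0.50 in the total ChREBP line. The effects of the knockouts differed by -0.08 (SE 0.10). That value is built from the differences Plxna2 was chosen on, so nothing is read from it. Between the wild types of the lines, the contrast that the choice of the gene did not use, although it shares their arrays, the brightest probe differed by -0.08 (95% interval -0.21 to 0.06), with an adjusted p of 0.421 in limma. Of 12 endothelial markers 0 were called in the ChREBPβ line, beside 0% of all probes. An unadjusted p under 0.05 in limma was found for 4 of the 12, beside 9.02% of all probes. The median of the list was 0.19, beside 0.02 over all probes. The part of endothelial RNA in the Plxna2 difference of that line was not tested.

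The other Plxna2 probes gave smaller or less separate differences. Probe A_52_P431981, which lay within 3 kb of the brightest probe, was not in the authors' table, since the scanner software marked its spot as found on 8 of 25 arrays, although it was well above background on all of them. Its log2 raw intensity, not normalised, had a lowest, median and highest value of 9.70, 9.98 and 10.19 in ChREBPβ WT, 10.19, 10.23 and 10.33 in ChREBPβ KO and 9.65, 9.93 and 10.53 in total ChREBP WT mice, and was 9.96, 10.25, 10.27, 10.33 and 10.50 in the total ChREBP KO mice. The means were higher in knockouts, at 10.24 and 10.26 against 9.96 in both wild types, with overlap in the total ChREBP line.

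Probe A_55_P2715021, the distant one, was dim, with a raw median intensity of 42 to 91 on single arrays. Its lowest, median and highest log2 levels were 5.34, 5.54 and 5.76 in ChREBPβ WT, 5.41, 5.73 and 5.89 in ChREBPβ KO and 5.54, 5.96 and 6.27 in total ChREBP WT mice, and the total ChREBP KO mice had 5.73, 5.86, 6.07, 6.17 and 6.21. Knockouts and wild types overlapped in both lines, with differences of 0.15 (SE 0.10) and 0.13 (SE 0.10). It was higher in wild types of the total ChREBP line than of the ChREBPβ line by 0.34 (SE 0.09), with an adjusted p of 0.0106 in limma, in a comparison in which 22.0% of all probes were called. With the liver marker mean as a covariate it was 0.28 (SE 0.15, adjusted p 0.288 in limma) and the call ended. That marker mean was 12.74 to 15.98 in ChREBPβ WT and 8.59 to 13.56 in total ChREBP WT mice. The covariate thus goes largely with the line and makes this comparison less precise, and a part of liver RNA was not tested. Without the 4 arrays named above the difference was 0.42 (SE 0.11, adjusted p 0.0233 in limma).

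Likeness to the brightest Plxna2 probe was ranked over named genes outside the family, each by its most similar probe without empty cells. Over all 25 arrays the highest were Meox1 (Pearson r 0.88), Hivep2 (0.87), Mtss2 (0.86), Tenm4 (0.85) and Kpnb1 (0.85). These genes shared the arrays and the group differences: Meox1, a homeobox gene, was higher by 0.64 in ChREBPβ KO and by 0.56 in total ChREBP KO mice. After group and wash batch were removed, a different set of 5 genes was most like the brightest Plxna2 probe, namely Celf1 (0.86), Luzp1 (0.82), Swap70 (0.82), Adamts1 (0.81) and Gng11 (0.81). Plxnd1 had an r of 0.71 with Plxna2 over the arrays and of 0.66 after that removal. Among the other members r over the arrays ran from -0.48 for Plxnb2 to 0.43 for Plxna1. These values are descriptions over arrays that share their batches and cell makeup.

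**Figure D3:**
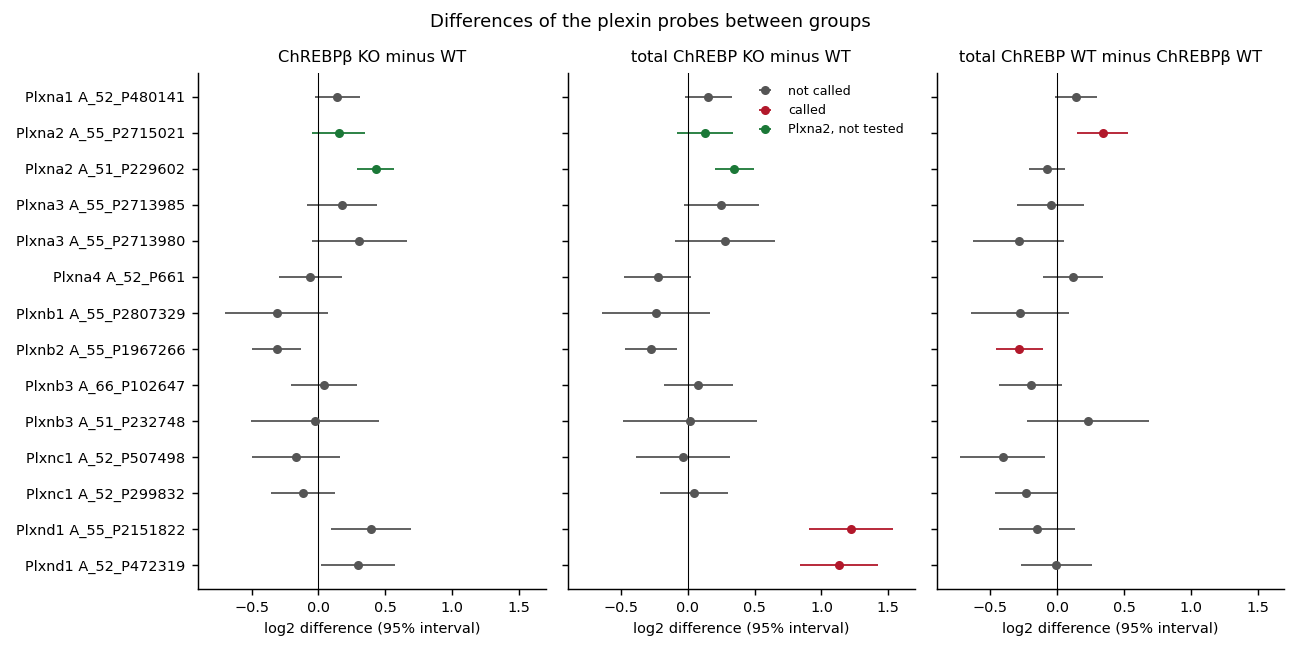
Log2 difference (horizontal axis) of each of the 14 plexin probes of the authors' table (vertical axis) between ChREBPβ KO and WT, total ChREBP KO and WT, and the wild types of the 2 lines, with 95% intervals; red marks called probes, grey probes that were not called, and green the Plxna2 probes in the comparisons they were chosen on. The intervals of the green probes are a description with no test. The Plxnd1 probes stand out in the total ChREBP line, at 1.22 and 1.13.

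The other class A plexins pair with neuropilins as receptors of class 3 semaphorins, and none of their probes was called in any comparison by the fit described. Plxna1 had mean log2 levels of 9.78 ± 0.13 (n = 7) in ChREBPβ WT, 9.94 ± 0.16 (n = 6) in ChREBPβ KO, 9.92 ± 0.17 (n = 7) in total ChREBP WT and 10.099 ± 0.17 (n = 5) in total ChREBP KO mice (SD). Its differences were 0.14 (95% interval -0.03 to 0.31) in the ChREBPβ line and 0.15 (-0.02 to 0.33) in the total ChREBP line. Plxna3, a receptor of Sema3f with neuropilin 2, had 7.32 ± 0.19, 7.64 ± 0.47, 7.04 ± 0.35 and 7.29 ± 0.22 in the same order for its brightest probe, with differences of 0.31 (-0.05 to 0.66) and 0.28 (-0.10 to 0.65). Its second probe gave 0.18 and 0.25. Plxna4, which also serves as a receptor of Sema6a, had means of 10.15 ± 0.13, 10.096 ± 0.25, 10.27 ± 0.25 and 10.06 ± 0.11 and negative differences, of -0.06 (-0.30 to 0.18) and -0.23 (-0.47 to 0.02). With the liver marker mean as a covariate the latter was -0.41, with an adjusted p of 0.0291 in limma, and was called. With array quality weights Plxna1 (0.19, adjusted p 0.0367) and Plxna3 (-0.43, adjusted p 0.0314) were called between the wild types. The groups of these 3 genes overlapped in both lines.

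Plxnb2, a widely expressed receptor of class 4 semaphorins, was lower in wild types of the total ChREBP line than of the ChREBPβ line. Its lowest, median and highest log2 levels were 12.20, 12.44 and 12.67 in ChREBPβ WT, 11.998, 12.17 and 12.32 in ChREBPβ KO and 11.92, 12.16 and 12.57 in total ChREBP WT mice, and the total ChREBP KO mice had 11.63, 11.69, 11.85, 12.13 and 12.15. The groups overlapped in every comparison. Between the wild types the difference was -0.28 (SE 0.08), with an adjusted p of 0.020 in limma. It was -0.07 (adjusted p 0.792) with the liver marker mean as a covariate, -0.34 (0.0512) without the 4 arrays named above and -0.24 (0.0512) without ChREBPβ WT replicate 2, so that the call ended in each. Most of the 4 arrays were ChREBPβ WT, so the larger difference of -0.34 rests on fewer arrays of that group. The covariate goes largely with the line, which makes this comparison less precise.

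The knockouts of both lines had lower Plxnb2 means than their wild types without a call. The difference was -0.31 (95% interval -0.49 to -0.13) in the ChREBPβ line, with an adjusted p of 0.335 in limma, and -0.27 (-0.47 to -0.08) in the total ChREBP line, with an adjusted p of 0.0745. The latter was called at an adjusted p of 0.0337 without total ChREBP KO replicate 4. It was also called at 0.0491 with normexp background correction and at 0.0249 with 75th percentile scaling. In 35 of 38 settings it was not called, and its adjusted p in limma reached 0.381. Over the 38 settings it ran from -0.33 to -0.18. Within the wash batches it was -0.23, -0.34, -0.29 and -0.24. Plxnb2 is also expressed by macrophages. Of 12 macrophage markers 0 were called between total ChREBP KO and WT mice, where 8.79% of all probes were called. An unadjusted p under 0.05 in limma was reached by 4 of these markers and by 20.3% of all probes. Against a median difference of 0.02 over all probes, that of the macrophage markers was -0.20. Their mean level was 11.83 to 12.23 in knockouts and 11.98 to 12.55 in wild types, and their part in the Plxnb2 values was not tested.

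Plxnb1, the receptor of Sema4d, and Plxnb3, the receptor of Sema5a, were not called in any comparison. Plxnb1 had means of 8.91 ± 0.35 (n = 7), 8.64 ± 0.35 (n = 6), 8.63 ± 0.33 (n = 7) and 8.43 ± 0.50 (n = 5) (SD), in the group order given for Plxna1, with differences of -0.31 (95% interval -0.70 to 0.07) and -0.24 (-0.64 to 0.17) between knockout and wild type. The brightest Plxnb3 probe was dim and uneven, with means of 6.03 ± 0.56, 6.03 ± 0.46, 6.26 ± 0.21 and 6.30 ± 0.35, and its differences of -0.03 (-0.50 to 0.45) and 0.02 (-0.49 to 0.52) leave changes of either direction possible at this spread. The second Plxnb3 probe gave 0.04 and 0.08.

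Plxnc1, the receptor of Sema7a on immune cells, was not called by the fit described. Its brightest probe had means of 7.84 ± 0.30 (n = 7) in ChREBPβ WT, 7.70 ± 0.42 (n = 6) in ChREBPβ KO, 7.44 ± 0.13 (n = 7) in total ChREBP WT and 7.40 ± 0.25 (n = 5) in total ChREBP KO mice (SD). The knockout differences were -0.17 (95% interval -0.50 to 0.16) and -0.04 (-0.38 to 0.31). Between the wild types it was -0.41 (-0.72 to -0.09), with an adjusted p of 0.0586 in limma, and was called with 75th percentile scaling, with array quality weights, with only the groups compared, and without ChREBPβ KO replicate 3, ChREBPβ KO replicate 4 or ChREBPβ WT replicate 8 (adjusted p 0.0189 to 0.0486 over these 6 settings). With the liver covariate it was 0.0206. The second probe of the table, A_52_P299832, was dim and gave -0.12 and 0.05 for the knockouts and -0.23 (adjusted p 0.144) between the wild types, so its sign in the total ChREBP line was opposite. The last Plxnc1 probe was well above background on 0 of 25 arrays, with raw intensities of 15 to 25, so no difference is given for it.

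Counted over the family, 0 of the 12 probes of the 8 plexins other than Plxna2 were called between ChREBPβ KO and WT mice, where 0% of all 40561 probes were called by limma. Over all probes the count was 80 without ChREBPβ KO replicate 4, with 0 plexin probes among them. At an unadjusted p under 0.05 there were 3, the Plxnb2 probe and both Plxnd1 probes, against 9.02% of all probes. The median difference of the 12 probes was 0.01, and it was 0.06 in the total ChREBP line, beside 0.02 over all probes in both. Between the wild types, 2 of 14 plexin probes were called, the distant Plxna2 probe and Plxnb2, beside 22.0% of all probes. Their median difference was -0.12, beside 0.05 over all probes.

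**Figure D4:**
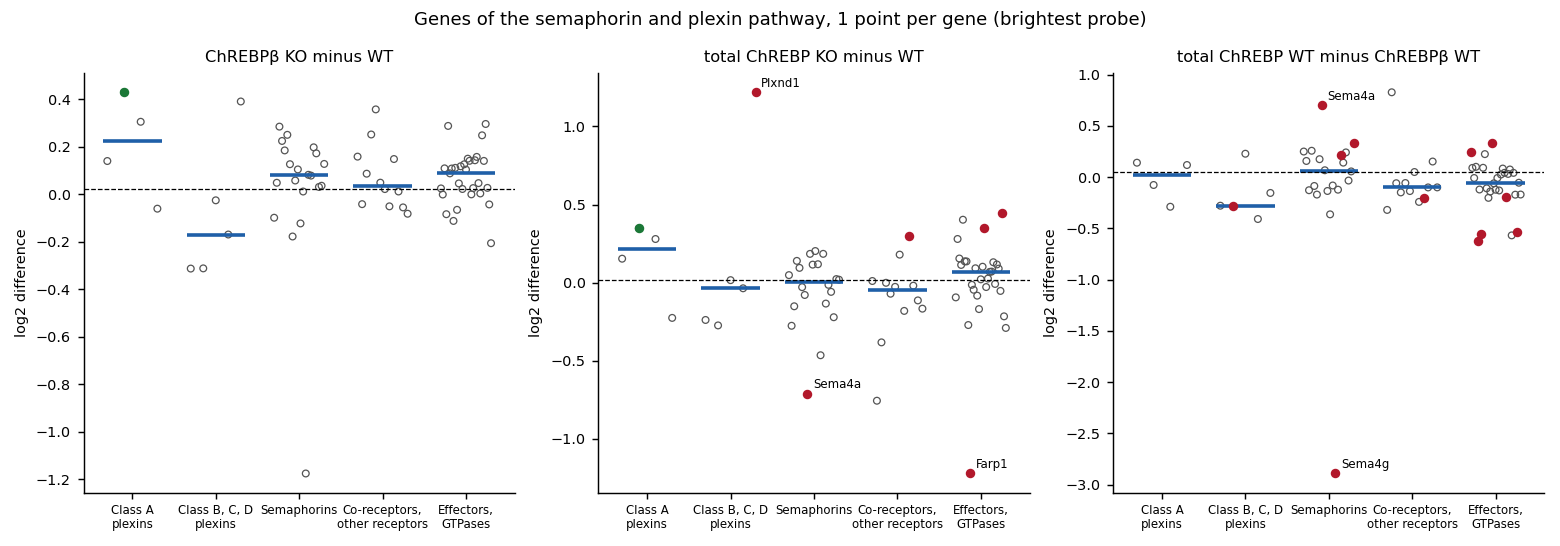
Log2 difference (vertical axis) of the genes of 5 lists (horizontal axis), 1 point per gene by its brightest probe, in 3 comparisons with separate vertical scales; filled red points were called, the green point is Plxna2, blue lines are list medians and the dashed line is the median of all probes. Plxnd1 (1.22), Sema4a (-0.71) and Farp1 (-1.22) lie outermost among the called genes of the total ChREBP line.

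Of the semaphorins, the ligands of the family, all 20 genes of the list had a probe in the table and 0 were called in the ChREBPβ line, with 2 at an unadjusted p under 0.05 in limma, beside 9.02% of all probes. In the total ChREBP line only Sema4a, a membrane-bound semaphorin of immune cells, was called, beside 8.79% of all probes. Its log2 level was 12.83 ± 0.12 (SD, n = 5) in total ChREBP KO and 13.55 ± 0.20 (SD, n = 7) in total ChREBP WT mice, so it fell by 0.71, with an adjusted p of 0.000248 in limma. Its level in ChREBPβ WT mice was 12.85 ± 0.15 (SD, n = 7), and it was higher in wild types of the total ChREBP line than of the ChREBPβ line by 0.70. Sema3e, a ligand of Plxnd1, differed by 0.09 in the total ChREBP line, with an adjusted p of 0.835 in limma. The list median was 0.08 in the ChREBPβ line and 0.00226 in the total ChREBP line, beside 0.02 over all probes in each.

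Between the wild types, 4 of the 20 semaphorins were called, beside 22.0% of all probes. Sema7a, the ligand of Plxnc1, was higher in total ChREBP WT mice by 0.34 and Sema5b by 0.21. Sema4g was lower there by 2.89 on the log2 scale, from a mean of 9.20 ± 1.06 (SD, n = 7) in the ChREBPβ line to 6.31 ± 0.48 (SD, n = 7). Of 8 liver markers, 7 were also called lower in total ChREBP WT mice, with a list median of -4.69, and their part in the Sema4g difference was not tested.

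Among 12 co-receptors and other receptors, neuropilin 1 (Nrp1), which joins class A plexins in binding class 3 semaphorins, was the only gene called in the total ChREBP line, where 8.79% of all probes were called. It rose from 13.91 ± 0.16 (SD, n = 7) in wild types to 14.21 ± 0.08 (SD, n = 5) in knockouts, by 0.30, with an adjusted p of 0.0198 in limma. It was lower in wild types of the total ChREBP line than of the ChREBPβ line by 0.21 (adjusted p 0.0463), a call that 4 of 5 alternative ways of preparing the values did not make. Neuropilin 2 (Nrp2) differed by -0.02 in the total ChREBP line, with an adjusted p of 0.953. In the ChREBPβ line 0 of the 12 were called by limma, with 2 at an unadjusted p under 0.05, which 9.02% of all probes had.

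Of 30 effectors and small GTPases downstream of plexins, 29 had a probe in the table. In the total ChREBP line 2 were called higher and 1 lower, beside 8.79% of all probes called. Rras, a GTPase that plexins inactivate, rose by 0.45 (adjusted p 0.0333) and its relative Mras by 0.35 (adjusted p 0.0153) in limma. Farp1, a guanine exchange factor that associates with class A plexins, fell by 1.22, from 12.15 ± 0.14 (SD, n = 7) to 10.96 ± 0.43 (SD, n = 5), with an adjusted p of 7.93e-06 in limma. Its effect differed from that in the ChREBPβ line by -1.33 (adjusted p 0.000337). The count of 3 was 5 with normexp background correction and with 75th percentile scaling. In the ChREBPβ line 0 of the 29 were called by limma, with 4 at an unadjusted p under 0.05, beside 9.02% of all probes.

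Between the wild types 6 of the 29 effectors were called, beside 22.0% of all probes. Crmp1 (-0.62) and Dpysl3 (-0.55), which carry semaphorin signals to microtubules, Rras (-0.53) and Rap1b (-0.20) were lower in wild types of the total ChREBP line than of the ChREBPβ line, and Gipc1 (0.34), an adaptor that binds plexin tails, and Arhgap35 (0.25), a RhoGAP, were higher. The Rras mean was lowest in total ChREBP WT mice, at 13.24 ± 0.19 (SD, n = 7), beside 13.67 ± 0.17 (SD, n = 5) in total ChREBP KO mice. In the ChREBPβ line it was 13.77 ± 0.13 (SD, n = 7) in wild types and 13.79 ± 0.33 (SD, n = 6) in knockouts.

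The core promoters of the family were searched for the E-box CACGTG, a palindrome of the kind that ChREBP binds in pairs. RefSeq promoter sequences, each of 300 bases, covered 7 of the 9 genes in 8 promoters, and 0 held it, against 7.15% of 32851 promoters. This says only that these letters are not in those windows.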

How the data were processed

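Total RNA of pgWAT from 25 mice was hybridised to 1-colour Agilent arrays. The authors deposited scanner files with raw intensity per spot (Agilent Feature Extraction 10.10.1.1) and a table of 40561 probes, which held log2 median intensity after the authors' detection filter and quantile normalisation. On each array the table tracked the scanner values (r of at least 0.9998), and its 23 empty cells were all on outlier spots. Raw intensity was used for members not in the table. Groups came from the sample titles, and 0 columns were unassigned.

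Differences were fitted over all 40561 probes with limma 3.58.1 in R 4.3.3, with the 4 groups and the wash batch as terms; each of the 4 batches held all groups. A probe was called at a Benjamini-Hochberg adjusted p under 0.05 over all probes. For a gene with several probes in the table, the brightest on average stood for the gene in lists. Levels are given as mean ± SD, and 95% intervals come from the same fit.

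The members and gene lists were chosen with earlier results of these data known. Named genes were the members, the called genes of the pathway lists and the 5 genes most like Plxna2 by Pearson r; Sema3e and Nrp2, partners of plexins, were added after their values were seen, as were the called adipocyte markers. P-values weigh a difference between groups against the spread between these arrays within groups. The procedure was tested on simulated data. Alternatives covered the filter, background correction, scaling, batch terms, array weights and leaving out each array. The fits without 4 arrays and with the liver marker mean as a covariate were chosen after seeing the data. Gene names were updated and promoters taken from RefSeq tables (GRCm38.p6), while probe positions are those of the array files (mm9).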

Additional observations from a re-analysis of the deposited data

Results flagged for a closer look

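The effect on Plxnd1 differed between the lines by a test of the difference itself. The total ChREBP effect exceeded the ChREBPβ effect by 0.83 for probe A_55_P2151822 (adjusted p 0.027 in limma) and by 0.83 for probe A_52_P472319 (adjusted p 0.0155). Within the wash batches the difference of effects was 1.22, 0.15, 0.64 and 0.92 for the former and 1.02, 0.46, 0.65 and 0.95 for the latter.

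In 4 of 48 groups of plexin values, over 12 probes (the brightest of each member and the others of Plxna2 and Plxnd1), 1 array stood far from the rest. For a single group chance alone gives about 1 in 20. These groups share arrays and some share a gene, so the count of 4 is not weighed against that rate. Total ChREBP WT replicate 2, the array with the highest Adam7, had the lowest value of Plxnd1 probe A_52_P472319, at 10.14 beside 10.88 for the next array. ChREBPβ WT replicate 2 had the highest Plxna1 level of its group, at 10.05 beside 9.81, and the highest level of Plxnb3 probe A_51_P232748, at 7.22 beside 6.07. ChREBPβ KO replicate 4 had the highest level of the same Plxnb3 probe in its group, at 6.92 beside 6.05.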

How the results depend on the processing

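The higher Plxnd1 level in total ChREBP KO mice was called in all 38 settings that gave a test, with a difference of 1.05 to 1.29 for the brightest probe, and the count of 0 plexin probes called in the ChREBPβ line held in every setting run. The difference of effects depended more on the settings. Its count of 2 plexin probes was 1 with no filter on dim probes (brightest Plxnd1 probe 0.80, adjusted p 0.0616) and 1 without the 4 arrays highest in epididymis or kidney markers, and 1 to 2 when single arrays were left out. The count of 2 between the wild types was 4 with 75th percentile scaling, 5 with array quality weights, 1 without the 4 arrays, 0 with the liver marker mean as a covariate, and 1 to 3 when single arrays were left out. The count of 2 in the total ChREBP line was 2 to 3 when single arrays were left out and 3 with normexp or 75th percentile scaling (adding Plxnb2) and with the covariate (adding Plxna4). Over all probes, array weights called 5393 in the total ChREBP line, 2161 for the difference of effects and 12377 between the wild types, beside 3564, 1302 and 8912. In the ChREBPβ line 0 probes were called, but 48 with array weights, 80 without ChREBPβ KO replicate 4, 10 without the 4 arrays, and 1 or 2 in 4 other settings. For the wild types the count was 3992 without the 4 arrays, most of them ChREBPβ WT, and 3243 with the covariate, which goes largely with the line. Both settings also make this comparison less precise, so the lower counts have no single reading. The causes were not tested.

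Replicate numbers were not used as pairs in the main fit. Of 9 same-numbered pairs 2 had a correlation over 0.1, and the 9 ran from -0.43 to 0.39. Pairs with different numbers ran from -0.60 to 0.66. So few pairs cannot show that pairing was absent. With the replicate block the total ChREBP difference of Plxnd1 was 1.23, the plexin count for the difference of effects was 1 (brightest Plxnd1 probe 0.81, adjusted p 0.0534), and 710 of all probes were called there.

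Small differences changed sign. Without the 4 arrays, the wild-type difference became 0.0386 for Plxna2 and 0.11 for Plxnd1. With the liver covariate it became -0.27 for Plxna4, 0.0425 for Plxnb1 and 0.0206 for Plxnc1, whose total ChREBP difference became 0.16. With array weights the ChREBPβ difference became 0.0271 for Plxna4 and 0.0623 for Plxnb3, which had 0.000948 without the wash batch term. The total ChREBP difference of Plxnb3 became -0.0101 with normexp, -0.0538 with 75th percentile scaling and -0.0131 with the replicate block. The mean over a gene's probes gave 0.13 for Plxna2 between the wild types, 0.0076 for Plxnb3 in the ChREBPβ line and 0.0049 for Plxnc1 in the total ChREBP line. Leaving out single arrays gave ranges of -0.17 to 0.00844 for Plxna4 and -0.22 to 0.21 for Plxnb3 in the ChREBPβ line, and of -0.13 to 0.13 for Plxnb3 and -0.11 to 0.038 for Plxnc1 in the total ChREBP line. The ChREBPβ and total ChREBP differences of Plxna2 ran from 0.29 to 0.49 and from 0.24 to 0.41. Nothing is read from their sign, because Plxna2 was chosen as higher in both knockouts.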
